A study of Mus musculus with 4 samples.

Results

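Il17a, Il17f, Il22, Il23r, Ccr6, Blk, Maf and Cd163l1 are 8 genes of the lymphocytes that make IL-17 and IL-22. They were taken by symbol, each as 1 row, from a matrix of 27998 genes. They were read in cells of mouse back skin with at least 2 UMIs (unique molecular identifiers, 1 per captured transcript) of Cd3d, Cd3e and Cd3g together, called Cd3 cells here. These made up 816 of 22373 cells kept after filtering, and the other 21557 cells served to show where the genes were read elsewhere.

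The data are droplet 3′ single-cell RNA counts of FACS-sorted cells from CD1 mice, with 1 library in each of 4 groups. The groups were Ovol1 null given imiquimod (IMQ), Ovol1 null untreated, control given IMQ and control untreated. IMQ, a Toll-like receptor 7 agonist that causes psoriasis-like inflammation, was put on shaved backs at 7 to 8 weeks of age as one dose of 62.5 mg of 5% cream. The series compared Ovol1 null with control skin, untreated and under IMQ. The labels do not give the number of mice per library, the gate of the sort, the time of collection, the allele or whether untreated backs were shaved.

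IL-17A and IL-17F are related cytokines that bind a shared receptor on keratinocytes and fibroblasts and call in neutrophils. IL-22 acts on epithelial cells, where it drives growth and antimicrobial defence. In mouse skin these cytokines come mostly from dermal gamma delta T cells, which respond to IL-23 and carry CCR6, with further contributions from T helper 17 cells and innate lymphoid cells. Ovol1 encodes a zinc finger repressor of epithelial cells.

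Il17a (ENSMUSG00000025929) lies on the plus strand at chr1:20730905-20734496 and Il17f (ENSMUSG00000041872) on the minus strand at chr1:20777146-20790617, in GRCm38 with GENCODE M21. Their annotated gene bodies are 42650 bases apart. Il22 (ENSMUSG00000074695) lies at chr10:118204942-118210047, Il23r (ENSMUSG00000049093) at chr6:67422932-67491855 and Ccr6 (ENSMUSG00000040899) at chr17:8236043-8257141. Blk (ENSMUSG00000014453) lies at chr14:63372836-63417037, Maf (ENSMUSG00000055435) at chr8:115682942-115707794 and Cd163l1 (ENSMUSG00000025461) at chr7:140218267-140231145. All 8 are annotated as protein coding.

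The promoter windows below are shown because several of the 8 genes share AGGTCA, a half-site bound by many nuclear receptors, close to their start sites. RefSeq promoter sequences (GRCm38.p6) were at hand for 6 of the 8 genes, with 2 promoters for Ccr6 and 1 for each of the others, and none was used for Blk and Maf. AGGTCA was searched on both strands of the 250 bases before each start site. Capitals mark the match, TGACCT being AGGTCA on the other strand, and each window is read 5′ to 3′ along the gene's strand.
Il17a, chr1:20730773-20730802, plus strand: gtggttctgtgcTGACCTcatttgaggatg
Il17f, chr1:20784311-20784340, minus strand: cagtcagtaaggAGGTCAgtggaaacaggg
Il23r, chr6:67491904-67491933, minus strand: aaatgaaaatgtAGGTCAgggctctgctga
Il23r, chr6:67492067-67492096, minus strand: catgaccaccatTGACCTgtttgacttctt
Ccr6, chr17:8235987-8236016, plus strand: cagtgaaatcatTGACCTagttacataagt
The match began 120 bases before the RefSeq start site in Il17a, 58 in Il17f, 66 and 229 in Il23r, and 44 in 1 of the 2 promoters of Ccr6. The RefSeq start of Il17f lies inside the GENCODE gene body given above, which includes a longer transcript that starts upstream, so its window lies there too. The windows of Il22 and Cd163l1 held no match. Of all 32851 RefSeq promoters of this length, 14.0% held AGGTCA, so a match alone is common. TGANTCA, a motif of the AP-1 family, was searched in the same way and matched in Il17a alone of the 6 genes, 244 bases before its start, and in 6.75% of all promoters. These are letters in a window and not measured binding sites.

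After filtering, the libraries held 5543 cells (Ovol1 null IMQ), 5214 (Ovol1 null untreated), 5576 (control IMQ) and 6040 (control untreated). Median UMIs per cell were 8394, 5703, 4759.5 and 5697.5 in that order, and the shallowest kept cell had 3039 UMIs in the first library, against 1449, 1413 and 1456 in the others. Ovol1 in keratinocytes stood at 102 CPM (UMIs per 1000000 UMIs of the cells read) in the Ovol1 null IMQ library and 45.0 CPM in the Ovol1 null untreated library, against 36.8 CPM in the control IMQ library and 32.7 CPM in the control untreated library. It was not lower in either library labelled null, and 3′ tags cannot check an allele whose deleted part is not given. Both are therefore called labelled null below. Of 23188 barcode sequences, 267 were in more than 1 library, and no such pair was a Cd3 cell in both. With 1 library per group there was no replicate and no test, and all intervals are 95% intervals for counting error only. They take UMIs as independent, while single cells held up to 221 UMIs of one cytokine, so they are too narrow for the level of a cell population.

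Cd3 cells numbered 248 in the labelled null IMQ library, 184 in the labelled null untreated library, 75 in the control IMQ library and 309 in the control untreated library, or 4.47%, 3.53%, 1.35% and 5.12% of the kept cells. Their median depths were 4302, 2381.5, 2556 and 2680 UMIs. Clusters named T or NK cell from their markers held 80.6%, 88.6%, 85.3% and 87.1% of them. The labelled null IMQ library was spread over other T cell clusters than the rest. Of its cells 140 fell in a cluster led by Il17a, Il17f and Areg, which held 13 control IMQ cells and none from either untreated library. The main T cell cluster of the others, led by Cxcr6, Cd3g and Ltb, held 15 labelled null IMQ cells, 150 labelled null untreated, 40 control IMQ and 254 control untreated cells. Of 24 T cell receptor and co-receptor genes sought by name, 12 were found in the matrix. None of the 12 was a receptor constant or variable chain gene, so gamma delta and alpha beta cells are not told apart here.

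RNA of other cells was read in the Cd3 cells, and unequally. The 8 basal keratinocyte markers summed to 7710 CPM in Cd3 cells of the labelled null IMQ library, 3677 CPM in labelled null untreated, 6616 CPM in control IMQ and 1026 CPM in control untreated cells. The 13 T or NK markers found in the matrix summed to 5240, 8907, 5095 and 7353 CPM in the same order. They include Cd3d, Cd3e and Cd3g, which chose the cells. The neutrophil list, whose S100a8 and S100a9 are also made by keratinocytes, summed to 8710 CPM in the first and to 85.8, 352 and 64.9 CPM in the others, with 2 of its 8 genes at 0 in the first and 5 at 0 in each of the others. The 9 fibroblast markers summed to 13596, 19819, 7676 and 11614 CPM. The 7 B or plasma cell markers found in the matrix summed to 1222, 764, 1694 and 351 CPM, with 3, 3, 4 and 3 at 0. The 7 Langerhans cell markers summed to 2786, 1264, 908 and 3215 CPM, with 0, 1, 2 and 0 of them at 0, and the 12 dendritic cell markers to 2450, 1119, 881 and 3343 CPM, with 3, 2, 7 and 1 at 0. These lists share Cd74 and H2-Ab1. The part of these differences in the ratios below was not tested, and the values for T or NK clusters alone are given where they differ.

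The cytokine genes Il17a and Il17f were higher under IMQ in both genotype labels. Il17a had 5094 UMIs in Cd3 cells of the labelled null IMQ library, 963 in labelled null untreated, 750 in control IMQ and 1238 in control untreated. That is 2828 CPM (2751 to 2907) and 1621 CPM (1520 to 1726) in the labelled null libraries, and 2541 CPM (2362 to 2729) and 1164 CPM (1100 to 1230) in the control libraries. Both IMQ libraries were above both untreated libraries. IMQ over untreated was 1.75-fold (1.63 to 1.87) in labelled null and 2.18-fold (1.99 to 2.39) in control cells.

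Il17f followed the same order of libraries. It had 1933 UMIs in labelled null IMQ, 324 in labelled null untreated, 292 in control IMQ and 486 in control untreated Cd3 cells, or 1073, 545, 989 and 457 CPM. IMQ over untreated was 1.97-fold (1.75 to 2.22) in labelled null and 2.17-fold (1.87 to 2.51) in control cells. One cell held 42.1% of the control IMQ UMIs of Il17f. Without the top cell of each library the control log2 ratio was 0.50, against 1.12 with it, and was no longer past 1.5-fold.

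The share of Cd3 cells with an Il17a UMI was 66.5% (60.3 to 72.4) in labelled null IMQ, 40.2% (33.1 to 47.7) in labelled null untreated, 29.3% (19.4 to 41.0) in control IMQ and 24.6% (19.9 to 29.8) in control untreated. With each cell thinned to 1400 UMIs, which left out no cell, the shares were 56.5%, 37.0%, 25.3% and 22.0%. The labelled null IMQ library had the highest share in both readings, and the intervals of the 2 control libraries overlapped. For Il17f the shares were 50.8%, 25.0%, 26.7% and 22.0%, and 37.9%, 23.9%, 21.3% and 17.8% after thinning. As background, an Il17a UMI was read in 9.04% of Cd3-free keratinocytes (median 13139 UMIs) and 6.16% of Cd3-free fibroblasts (7930.5 UMIs) of the labelled null IMQ library. In the other libraries those shares lay between 0.897% and 2.33%.

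**Figure D1:**
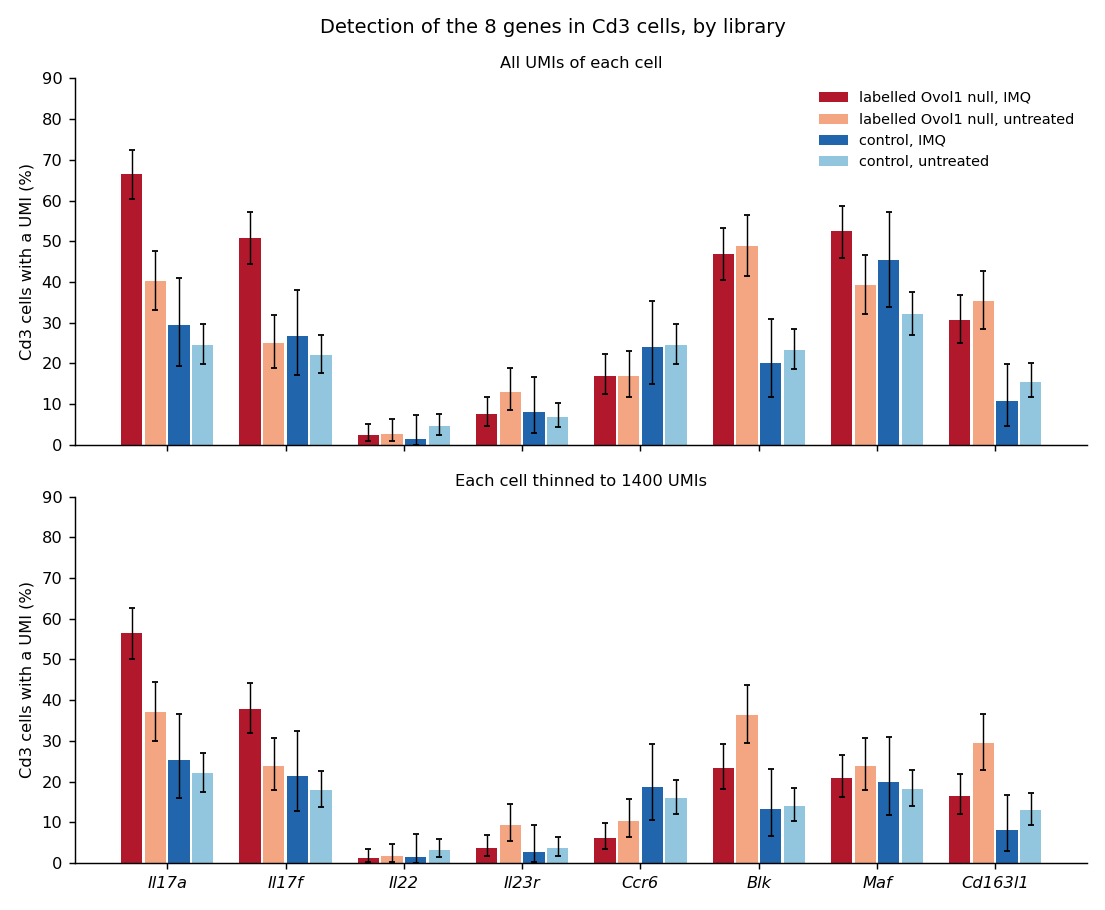
Percent of Cd3 cells with at least 1 UMI of each of the 8 genes (y axis) in the 4 libraries, with 95% exact binomial intervals, from all UMIs (top) and after thinning each cell to 1400 UMIs (bottom). Il17a and Il17f are detected in the largest share of cells in the labelled null IMQ library, 66.5% and 50.8%, and Blk and Cd163l1 lead in the labelled null untreated library after thinning.

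The cells differed in how many UMIs they held as well as in whether they held any. Among Cd3 cells with Il17a, the median was 18 UMIs in labelled null IMQ, 5.5 in labelled null untreated, 18.5 in control IMQ and 9 in control untreated. The highest cell had 221, 119, 161 and 70 UMIs in that order. Cells with at least 10 Il17a UMIs numbered 101, 24, 13 and 37. These values rise with depth, which was greatest in the labelled null IMQ library. The mean over positive cells was 30.9, 13.01, 34.1 and 16.3 UMIs, and 12.8, 8, 17.5 and 9.37 with each cell cut down at random to 1400. Both IMQ libraries were above both untreated libraries in each reading.

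Il22 was read in few cells, and its level in each library rests on 1 or 2 of them. It had 104 UMIs in 6 cells of labelled null IMQ, 25 in 5 cells of labelled null untreated, 8 in 1 cell of control IMQ and 213 in 14 cells of control untreated. The top cell held 51, 18, 8 and 160 of these UMIs. The shares of Cd3 cells were 2.42% (0.893 to 5.19), 2.72% (0.888 to 6.23), 1.33% (0.0338 to 7.21) and 4.53% (2.50 to 7.49), and every interval overlapped the others. By summed UMIs, control IMQ was 7.39-fold lower (3.68 to 17.3) than control untreated, labelled null untreated was 4.76-fold lower (3.14 to 7.52) than control untreated, and labelled null IMQ was 2.13-fold higher (1.04 to 5.07) than control IMQ. The last, at a log2 ratio of 1.01, was not called with doublets kept (0.91), with all barcodes kept (0.94) or among Cd3 cells of at least 3039 UMIs (0.47).

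**Figure D2:**
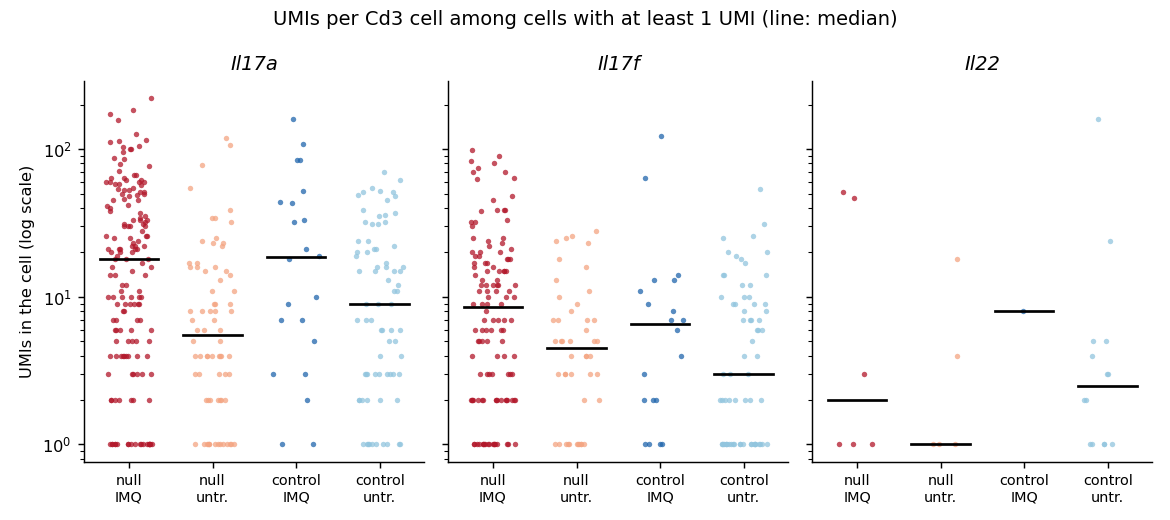
UMIs per cell (log axis) of Il17a, Il17f and Il22 in the Cd3 cells that hold at least 1, by library, each point a cell and the line the median. Il17a medians are 18 and 18.5 in the 2 IMQ libraries and 5.5 and 9 in the 2 untreated libraries, and Il22 rests on 6, 5, 1 and 14 cells from left to right.

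Il23r, Ccr6, Blk and Cd163l1 were lower under IMQ in labelled null Cd3 cells, where Il17a and Il17f were higher. Several general T cell genes were lower there too. Of 11 measured T cell receptor and co-receptor genes, 1 was higher and 6 lower, against 13.1% and 12.9% of all genes. Cd6 was the higher one, and Cd28, Cd247, Cd3g, Cd3e, Lat and Lck were the lower ones. The list and the T or NK markers include Cd3d, Cd3e and Cd3g, which chose the cells. The levels of those genes are thus bound in part to that choice. The summed T or NK markers stood at 5240 CPM under IMQ and 8907 CPM without. The part of this in the ratios below was not tested. Il23r, the IL-23 receptor chain that keeps these cells active, had 20 UMIs in labelled null IMQ, 28 in labelled null untreated, 6 in control IMQ and 23 in control untreated Cd3 cells. That is 11.1, 47.1, 20.3 and 21.6 CPM, so that the labelled null untreated library was highest and the labelled null IMQ library lowest. Il23r was 4.24-fold lower (2.31 to 7.95) under IMQ in labelled null cells, with a control ratio of 0.940 (0.313 to 2.38). It was 2.18-fold higher (1.21 to 3.96) in labelled null than in control cells without treatment. With Cd3 cells from 1 Cd3 UMI that log2 ratio was -0.0080, against 1.12. Among Cd3 cells of at least 3039 UMIs, a floor chosen after the depths were seen, the IMQ log2 ratio in labelled null cells was -1.38, from 20 and 8 UMIs, and was not called for its interval.

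Ccr6, the receptor for the keratinocyte chemokine CCL20, had 62 UMIs in labelled null IMQ, 39 in labelled null untreated, 32 in control IMQ and 102 in control untreated cells, or 34.4, 65.6, 108 and 95.9 CPM. It was lowest in labelled null IMQ, and both control libraries were above both labelled null libraries. Labelled null IMQ cells were 3.15-fold lower (1.99 to 4.90) than control IMQ cells and 1.91-fold lower (1.24 to 2.89) than labelled null untreated cells. Among T or NK clusters alone, the last log2 ratio was -0.62, against -0.94 over all Cd3 cells, and was not called. It was 0.41 with the floor of 3039 UMIs, with 7 UMIs left in the labelled null untreated library, -0.41 with 1 Cd3 UMI and -0.75 after thinning to 1400 UMIs. None of these was called. With the floor, labelled null over control under IMQ was at -0.71, against -1.67, and was not called. The share with a Ccr6 UMI was 16.9% and 16.8% in the labelled null libraries, IMQ first, and 24.0% and 24.6% in the control libraries.

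Blk, a Src family kinase of B cells that gamma delta T cells making IL-17 also use, was highest in labelled null untreated cells. It had 219 UMIs in labelled null IMQ, 155 in labelled null untreated, 28 in control IMQ and 129 in control untreated, or 122, 261, 94.9 and 121 CPM. The share of cells was 46.8% and 48.9% in the labelled null libraries and 20.0% and 23.3% in the control libraries, IMQ first in each, and the intervals of the labelled null pair lay above those of the control pair. After thinning the shares were 23.4%, 36.4%, 13.3% and 13.9%, and the interval of labelled null IMQ (18.3 to 29.2) overlapped that of control IMQ (6.58 to 23.2) and just met that of control untreated (10.3 to 18.3). Blk was 2.15-fold higher (1.69 to 2.74) in labelled null than in control untreated cells, and 2.15-fold lower (1.73 to 2.65) in IMQ than in untreated labelled null cells. The lower call did not hold under these alternatives. Its log2 ratio, -1.10, was -0.51 after thinning to 1400 UMIs, -0.53 with 1 Cd3 UMI and -0.02 with the floor of 3039 UMIs. Without treatment the log2 ratio of labelled null over control, 1.10, was -0.054 with 1 Cd3 UMI.

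Cd163l1, which encodes the scavenger receptor SCART1 of gamma delta T cells, was also highest in labelled null untreated cells. It had 166, 223, 17 and 147 UMIs in labelled null IMQ, labelled null untreated, control IMQ and control untreated cells, or 92.2, 375, 57.6 and 138 CPM. Both IMQ libraries were below both untreated libraries. Cd163l1 was 4.07-fold lower (3.32 to 5.01) under IMQ in labelled null cells and 2.40-fold lower (1.45 to 4.23) in control cells. In untreated skin it was 2.72-fold higher (2.20 to 3.37) in labelled null than in control cells. The log2 ratio of the last comparison, 1.44, was 0.28 with 1 Cd3 UMI, and that of IMQ in control cells, -1.23, was -0.63 after thinning to 1400 UMIs, and neither was then called.

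Maf encodes c-Maf, a transcription factor needed for gamma delta T cells that make IL-17. It had 247, 119, 53 and 148 UMIs in the same order of libraries, or 137, 200, 180 and 139 CPM, and passed 1.5-fold in none of the 4 comparisons. Its ratios were 0.685 (0.548 to 0.860) and 1.29 (0.925 to 1.78) for IMQ over untreated in labelled null and control cells, and 0.764 (0.566 to 1.05) and 1.44 (1.12 to 1.84) for labelled null over control under IMQ and without treatment.

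A gene was called higher or lower where it had at least 20 UMIs over both libraries, its CPM ratio passed 1.5-fold and its counting interval did not include 1. This compares libraries, not conditions. All 8 genes passed the minimum in every comparison. For IMQ over untreated in labelled null cells, 2 of the 8 were called higher and 4 lower, where 13.1% and 12.9% of all measured genes were called higher and lower. For IMQ over untreated in control cells, 2 were higher and 2 lower, against 7.83% and 10.8% of all genes. For labelled null over control under IMQ, 1 was higher and 1 lower, against 8.06% and 6.99%. For labelled null over control without treatment, 3 were higher and 1 lower, against 6.0% and 6.08%. With TMM scaling, 62.7% of the calls over all genes in labelled null cells under IMQ were higher ones, against 50.4% with plain totals, and 67.8% against 53.6% for labelled null over control under IMQ. The median log2 ratio over all genes shifted to 0.10 and 0.12 with TMM in these 2 comparisons, and no called member turned. TMM also called Cd163l1 higher in labelled null than in control cells under IMQ, and Ccr6 lower without treatment.

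**Figure D3:**
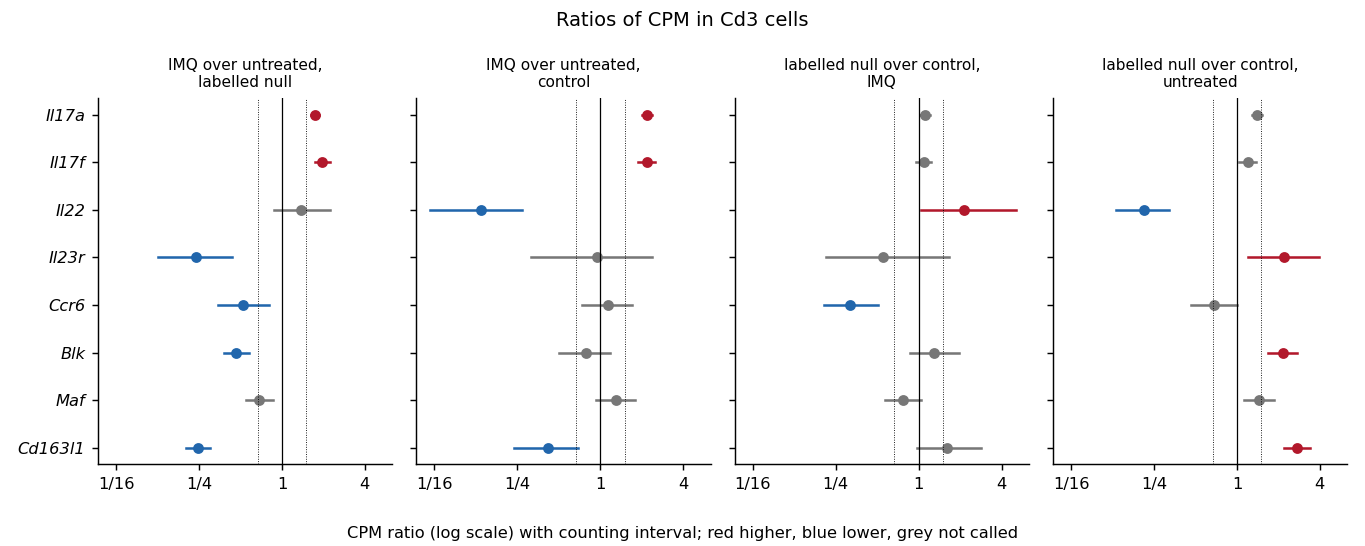
Ratios of CPM in Cd3 cells for the 8 genes in the 4 comparisons (log axis, first-named library over second), with 95% counting intervals. The dotted lines mark 1.5-fold either way. Under IMQ, Il17a and Il17f are called higher and Cd163l1 lower in both genotype labels, and Il23r, Ccr6 and Blk are called lower in labelled null cells.

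The comparison of labelled null with control under IMQ changed with the cells read. Over all Cd3 cells Il17a had a ratio of 1.11 (1.03 to 1.20) and Il17f of 1.09 (0.959 to 1.23). In T or NK clusters alone, which held 200 labelled null IMQ and 64 control IMQ Cd3 cells, their log2 ratios were 0.66 and 0.61, and both were called higher. Blk at 0.79 and Cd163l1 at 1.30 were then called higher too, and Ccr6 stayed lower at -1.21. The clusters were made from the same counts. The T or NK cluster led by Il17a, Il17f and Areg held 140 labelled null IMQ and 13 control IMQ cells. This choice of cells is therefore not independent of the cytokine levels. The T or NK clusters are not free of mixed profiles. One, led by Jchain and Mzb1, held 37 labelled null IMQ and 11 control IMQ cells, and 44 of its 58 cells were Cd3 cells. It had a median of 7979.5 UMIs and also met 8 of 9 fibroblast and 6 of 8 basal keratinocyte markers. With the mean of each cell's own CPM in place of the summed UMIs, Il17a was at 0.82 and Il17f at 0.79. With Cd3 cells of at least 3039 UMIs in each library they were at 0.42 and -0.06, and neither was called.

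The control rise under IMQ depended on the Cd3 minimum. With 1 Cd3 UMI in place of 2, the log2 ratio of Il17a was 0.06 in control cells and 1.39 in labelled null cells, and for labelled null over control without treatment it was -0.70, against 0.48. With 3 Cd3 UMIs these were 1.22, 0.81 and 0.74. For Il17f in control cells the log2 ratio was 0.05 with 1 Cd3 UMI and 1.18 with 3.

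Cd3 cells with UMIs of at least 2 of Il23r, Ccr6, Blk, Maf and Cd163l1 were read alone, so that the cytokines did not choose the cells. There were 122 in labelled null IMQ, 91 in labelled null untreated, 24 in control IMQ and 85 in control untreated. Their make-up differed between libraries. In that order, Maf was read in 77.9%, 57.1%, 79.2% and 65.9% of them. Blk was read in 77.0%, 82.4%, 45.8% and 65.9%, and Cd163l1 in 53.3%, 62.6%, 20.8% and 42.4%. The level of a cytokine and the share of cells that could make it are therefore not fully separated. Il17a stood at 5038 CPM (4867 to 5213), 3090 CPM (2870 to 3323), 4585 CPM (4203 to 4992) and 1596 CPM (1457 to 1746) in that order. Both IMQ libraries were again above both untreated ones, 1.63-fold (1.5 to 1.77) in labelled null and 2.87-fold (2.53 to 3.26) in control cells. Without treatment, labelled null was 1.94-fold (1.72 to 2.18) above control.

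In these cells an Il17a UMI was found in 82.8% (74.9 to 89.0), 56.0% (45.2 to 66.4), 54.2% (32.8 to 74.4) and 37.6% (27.4 to 48.8) of cells. Median depths were 4039.5, 2405, 2659 and 2789 UMIs, so the first share is not read against the others. Il17f stood at 1778, 1006, 1181 and 688 CPM. Il22 had 49 UMIs in 3 cells of labelled null IMQ, 23 in 3 cells of labelled null untreated, 0 in the 24 control IMQ cells and 35 in 5 cells of control untreated. Where none of the 5 genes was read, Il17a was lower in every library, at 783, 333, 1128 and 755 CPM in 53, 43, 24 and 128 cells. Median depths of these cells were 7622, 2456, 2243 and 2648.5 UMIs. Il17a was still read in 41.5% of those of labelled null IMQ, and in control IMQ 2 cells held its 88 UMIs. In the same unmarked cells Il17f was lower in 3 libraries, at 243, 45.1 and 161 CPM. It stood at 1808 CPM in control IMQ, where 4 cells held 141 UMIs.

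Il17a and Il17f were mostly found in the same cells. Of Cd3 cells with Il17f, 121 of 126 (96.0%) in labelled null IMQ, 42 of 46 (91.3%) in labelled null untreated, 16 of 20 (80.0%) in control IMQ and 46 of 68 (67.6%) in control untreated also had Il17a. In all libraries together this was 225 of 260 cells, while 112 of the 556 Cd3 cells without Il17f had Il17a. Co-detection goes up with depth, which was greatest in the labelled null IMQ library.

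Blk was more often read in Cd3 cells with Il17a than in those without it, in each library. It was read in 101 of 165 Il17a cells (61.2%) in labelled null IMQ, 57 of 74 (77.0%) in labelled null untreated, 8 of 22 (36.4%) in control IMQ and 34 of 76 (44.7%) in control untreated. Among Cd3 cells without Il17a it was read in 15 of 83, 33 of 110, 7 of 53 and 38 of 233. Of Cd163l1 cells, 46 of 76, 46 of 65, 1 of 8 and 27 of 48 had Blk, against 40.7%, 37.0%, 20.9% and 17.2% of Cd3 cells without Cd163l1, so control IMQ, with 8 such cells, went the other way. Il17a was read in 57, 28, 4 and 16 of the Cd163l1 cells, against 62.8%, 38.7%, 26.9% and 23.0% of the cells without. In labelled null untreated those 28 cells were 43.1%, close to the 38.7%.

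Il17a was read in 3 of 6 Il22 cells of labelled null IMQ, 2 of 5 of labelled null untreated, 0 of 1 of control IMQ and 6 of 14 of control untreated. Among Cd3 cells without Il22 it was read in 66.9%, 40.2%, 29.7% and 23.7%, so the libraries did not go one way, and the interval of the 6 of 14 (17.7 to 71.1%) includes the last of these. Ccr6 was read in 2, 3, 1 and 8 of the same Il22 cells, against 16.5%, 15.6%, 23.0% and 23.1% of Cd3 cells without Il22. Over all 8 genes, 182 of 248 cells (73.4%) had at least 2 in labelled null IMQ, 111 of 184 (60.3%) in labelled null untreated, 36 of 75 (48.0%) in control IMQ and 131 of 309 (42.4%) in control untreated. No cell had all 8, and 1 cell each of labelled null IMQ and control untreated had 7. Cells with no member had a median of 10047 UMIs in labelled null IMQ and 2616, 2243 and 2648.5 UMIs in the others. In those 30 deep cells Krt14, a basal keratin, stood at 9952 CPM, against 2989 CPM in the cells of the same library with at least 2 members.

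**Figure D4:**
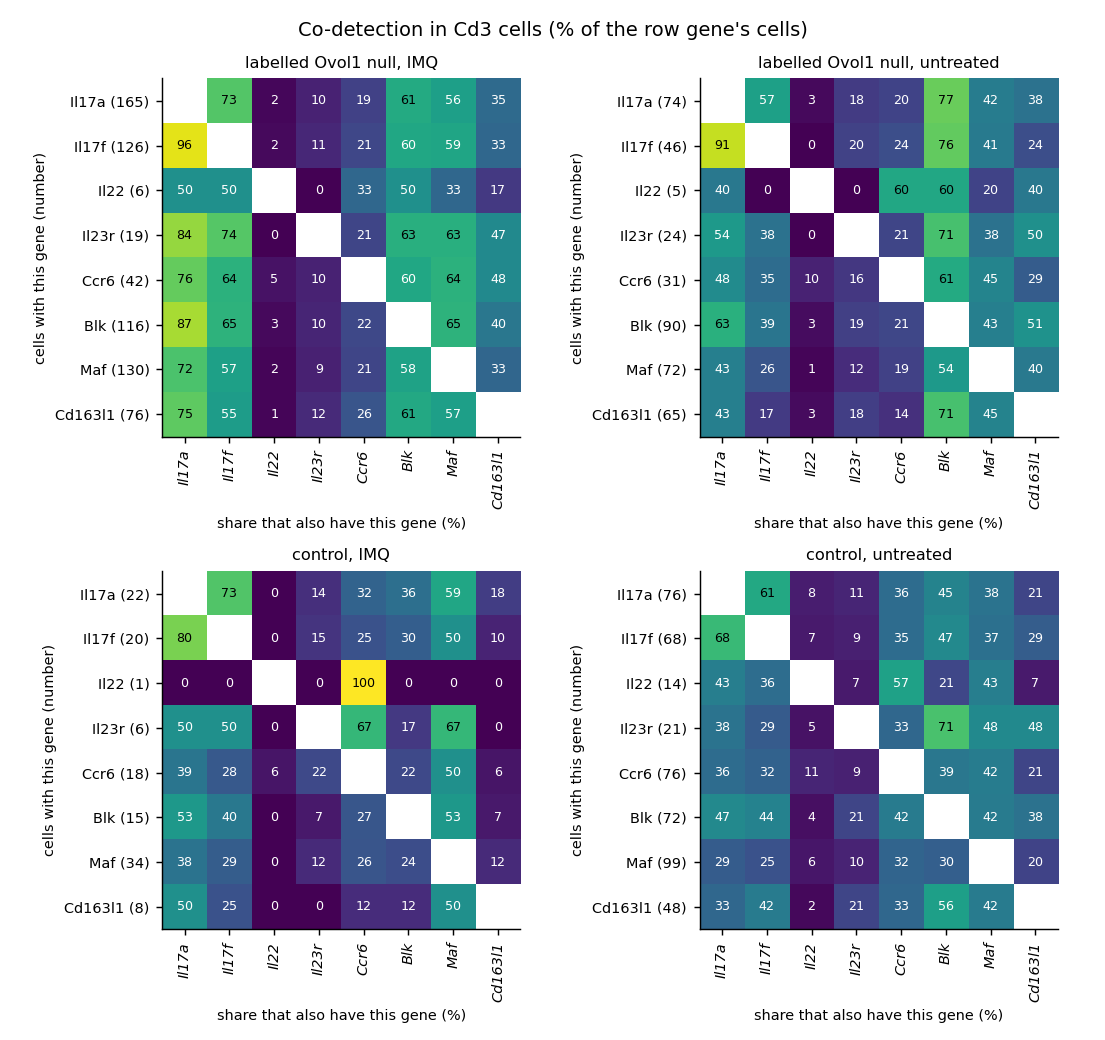
Co-detection in Cd3 cells by library. Each cell of the grid gives the percent of the row gene's cells (number in brackets) that also hold the column gene. Of Il17f cells, 96.0% have Il17a in labelled null IMQ and 67.6% in control untreated.

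Outside the Cd3 cells the genes fell into a lymphocyte-bound group and Maf. Cd3 cells held 92.6%, 90.7%, 92.1% and 92.04% of all Il17a UMIs in labelled null IMQ, labelled null untreated, control IMQ and control untreated, while making up at most 5.12% of the cells. The range was 92.7% to 97.7% for Il17f, 80.0% to 91.0% for Il22, 66.7% to 88.5% for Il23r, 81.0% to 86.1% for Ccr6, 75.7% to 92.1% for Blk and 70.8% to 88.0% for Cd163l1. Cells under 2 Cd3 UMIs with at least 5 UMIs of a cytokine were rare. There were 3 such cells for Il17a, 2 of labelled null IMQ and 1 of control untreated, 2 for Il17f and none for Il22. No Cd3-free keratinocyte or fibroblast held more than 2 Il17a UMIs in any library.

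Maf was read across the skin. Cd3 cells held 12.2%, 4.42%, 2.45% and 6.09% of its UMIs in the same order. In Cd3-free lymphatic endothelial cells it stood at 290 CPM in labelled null IMQ, 238 CPM in labelled null untreated, 419 CPM in control IMQ and 235 CPM in control untreated, from 46, 28, 45 and 58 cells. In macrophages or monocytes it stood at 106, 756, 269 and 540 CPM, from 32, 15, 31 and 33 cells. Keratinocytes, most of which lay in other clusters in labelled null IMQ than in the rest, had 30.1 CPM in labelled null IMQ and 97.2 CPM in labelled null untreated, against 76.0 CPM in control IMQ and 71.4 CPM in control untreated.

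**Figure D5:**
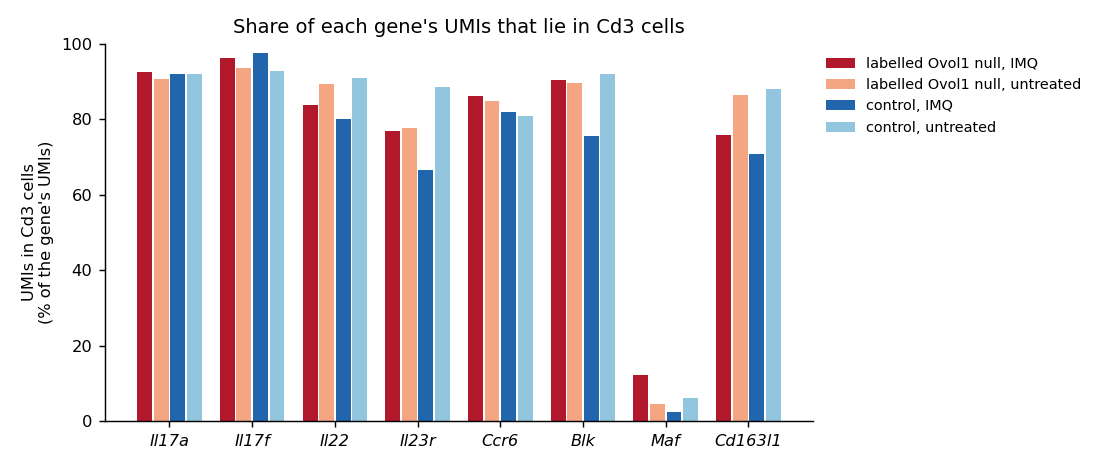
Percent of each gene's UMIs that lie in Cd3 cells (y axis) by library. For Il17a the share is 90.7% to 92.6%, and for Maf it is 2.45% to 12.2%.

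Other genes of type 17 T cells were read from a list of 35. Under IMQ 4 of 35 measured were higher and 24 lower in labelled null cells, where 13.1% and 12.9% of all measured genes were higher and lower. In control cells 3 of 33 were higher and 10 lower, against 7.83% and 10.8% of all genes. The largest ratios were those of Actn2, an actin cross-linker, which was 24.3-fold lower (11.6 to 58.6) in labelled null and 20.1-fold lower (5.47 to 168) in control cells. In labelled null cells the chemokine receptor Ccr10 was 11.4-fold lower, the transcription factor Zbtb16 8.08-fold lower and Ccr2 7.04-fold lower. In control cells Icos was 2.94-fold, Ccr10 2.55-fold and Serpinb1a 2.31-fold lower. Irf4, Stat3 and Aqp3 were called higher in both, Stat3, which passes on IL-23 and IL-6 signals, by 2.30-fold (1.63 to 3.32) in labelled null and 2.19-fold (1.5 to 3.17) in control cells. Under IMQ Aqp3 was also called higher in Cd3-free labelled null basal keratinocytes and control fibroblasts, and Stat3 in Cd3-free labelled null fibroblasts. Basal keratinocyte markers in the Cd3 cells were higher under IMQ in both labels, as given above. The part of this RNA in these calls was not tested. The list's median log2 ratio was -0.96 in labelled null and -0.50 in control cells, against -0.01 and -0.09 over all measured genes. The list of T cell receptor and co-receptor genes had medians of -0.64 and -1.24, and the summed T or NK markers given above were also lower under IMQ in both labels. Both hold Cd3d, Cd3e and Cd3g, which chose the cells, so they are not a measure apart from that choice.

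For labelled null over control under IMQ, 1 gene of the list was higher and 9 of 33 lower, against 8.06% and 6.99% of all genes, with Il18r1 3.42-fold, Ltb4r1 2.82-fold, Ccr2 2.75-fold and Il7r 2.28-fold lower. The higher gene was Aqp3, which was also called higher in Cd3-free basal keratinocytes in this comparison. Without treatment 6 of 35 were higher and 3 lower in labelled null cells, against 6.0% and 6.08% of all genes. Sox13, a factor of gamma delta T cells that make IL-17, was 2.51-fold (1.04 to 6.31) and Kcnk1 2.18-fold higher, and Sox4 was 2.51-fold and Batf 2.31-fold lower.

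The 10 genes outside the 8 most like them were found among 1895 by the lowest of 4 library ratios, CPM in Cd3 cells with at least 2 members over CPM in Cd3 cells with none. They were Furin at 3.81, Ramp1 at 3.77, Cxcr6 at 3.22, Slc16a6 at 3.21, Dusp4 at 2.99, Aebp2 at 2.93, Ldlrad4 at 2.86, Pdcd1 at 2.65, Gadd45b at 2.64 and Cd247 at 2.61. Furin, a proprotein convertase, stood at 791 CPM in cells with at least 2 members and 53.8 CPM in cells with none in labelled null IMQ. The lowest ratio fell to the control untreated library for all of these but Ldlrad4. Cells with and without members were chosen by these same libraries, and depth and keratinocyte RNA differed between them as given above.

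The receptors and the CCR6 ligand were read in Cd3-free basal keratinocytes, whose cells lay in different clusters in each library. Of the basal clusters, 1 held 601 labelled null IMQ cells and 19 control IMQ cells, 1 held 1275 control IMQ cells and at most 11 of any other library, and 1 held 642 labelled null untreated, 444 control untreated and 22 control IMQ cells. The values below therefore compare the class as a whole, and cluster make-up and level within a cluster cannot be told apart. Ccl20 stood at 130 CPM in labelled null IMQ, 13.3 CPM in labelled null untreated, 143 CPM in control IMQ and 23.2 CPM in control untreated. It was 9.81-fold higher (7.65 to 12.8) under IMQ in labelled null and 6.18-fold higher (4.91 to 7.88) in control basal cells, and 1.75-fold lower (1.24 to 2.46) in labelled null than in control basal cells without treatment. The IL-17 receptor chain Il17rc stood at 91.1, 76.5, 76.7 and 79.6 CPM and was called in no comparison. Il22ra2, a secreted decoy that binds IL-22, stood at 28.4 CPM in labelled null IMQ, 41.3 CPM in labelled null untreated, 166 CPM in control IMQ and 50.9 CPM in control untreated. It leads the control IMQ cluster of 1275 cells, so these levels are a description. Of the 9 receptor and decoy genes, 0 were higher and 2 of 7 measured lower under IMQ in labelled null basal cells, where 16.6% of all genes were higher and 27.9% lower. In control basal cells 1 was higher and 1 lower of 7, against 6.97% and 18%. For labelled null over control under IMQ 0 were higher and 1 of 7 lower, against 23.6% and 21.5%, and without treatment 1 of 6 was higher and 0 lower, against 3.54% and 2.56%.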

How the data were processed

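The deposited matrix holds UMI counts per gene and barcode, made with Cell Ranger 2.1.0 on mm10 per the submitters' processing notes and combined with the aggr step per the labels, each barcode suffix naming its library. Whether that step thinned reads, and the annotation release, are not given in the sources used here. Kept barcodes had 200 detected genes or more and a mitochondrial share up to 10%, and Scrublet doublets (expected rate 0.05, called per library) were left out: 128, 78, 94 and 146 cells, in the report's order. Cells were clustered (scanpy 1.11.5, 2000 variable genes, 30 components, 15 neighbours, Leiden resolution 1, 38 clusters) and named from 20 marker lists, needing 3 markers and 40% of a list.

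UMIs were summed over the Cd3 cells of a library, in which these totalled 1801014, 594220, 295200 and 1063750. CPM had exact Poisson, shares Clopper-Pearson and ratios conditional binomial intervals at 95%, for counting error only. Log2 ratios had 0.5 UMI added. Calls were tried on simulated counts drawn with independent UMIs and known depth. That is the model of the intervals, so the simulation could not check calls on UMIs clumped in single cells. All 8 genes are named, from other lists the 4 largest called ratios, with Irf4, Stat3, Aqp3 and the keratinocyte genes added after their values were seen. 1 gene of the lists is not reported here. The genes and lists were chosen with earlier results of these data known. TMM factors came from edgeR 4.0.16. Other alternatives were the Cd3 minimum, cell filters, doublets, T or NK clusters, thinning, per-cell CPM, the top cell, the UMI minimum and the fold. The floor at 3039 UMIs was added after the data were seen.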

Additional observations from a re-analysis of the deposited data

Results flagged for a closer look

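Il22, Ccr6 and Maf had imiquimod ratios that pointed in opposite directions in the 2 genotype labels. For Il22 and Ccr6 the ratio was called in 1 of the labels, and for Maf, at log2 ratios of -0.55 in labelled null and 0.38 in control cells, in neither. With 1 library per group the difference was not tested. Il22 had a log2 ratio of 0.44 for IMQ over untreated in labelled null Cd3 cells and -2.80 in control Cd3 cells, with 104 and 25 UMIs in the labelled null libraries and 8 and 213 in the control libraries. Of the 213, 160 were in 1 cell. Ccr6 had a log2 ratio of -0.94 in labelled null and 0.19 in control Cd3 cells. Depth and keratinocyte RNA differed between these libraries, and their part was not tested.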

How the results depend on the processing

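No paired analysis was possible because each group was 1 library and the labels give no replicate numbers. Alternatives were recomputed for the number of the 8 genes called, their log2 ratios and the shares of Cd3 cells. They were also recomputed for the cytokine levels in Cd3 cells with at least 2 of Il23r, Ccr6, Blk, Maf and Cd163l1. Of 384 log2 ratios of the 8 genes under alternatives, 290 stayed inside the counting interval, 91 moved outside it and 3 turned. Ccr6 under IMQ in labelled null cells turned to 0.41 with one floor of 3039 UMIs for all libraries, and in labelled null over control without treatment Il23r turned to -0.0080 and Blk to -0.054 with 1 Cd3 UMI. For labelled null over control under IMQ 2 genes were called, and 6 with 1 Cd3 UMI or in T or NK clusters, 5 thinned to 1400 UMIs or by mean cell CPM, 4 with 3 Cd3 UMIs or without the top cell, and 1 with doublets or all barcodes kept. Over all genes, 617 were higher and 535 lower of 7658 measured. These counts were 1381 and 1405 of 11054 with 1 Cd3 UMI, and 477 and 342 of 5730 in T or NK clusters. They were 220 and 175 of 2869 after thinning, and 816 and 585 of 7658 by mean cell CPM. With 3 Cd3 UMIs they were 527 and 430 of 6837, and without the top cell 855 and 319 of 7075. With doublets kept they were 623 and 536 of 7887, and with all barcodes 632 and 544 of 7910. For IMQ in labelled null cells 3 of the 8 genes were called at 2-fold in place of 6. Over all 8125 measured genes, 782 were then higher and 635 lower, in place of 1063 and 1045. The share of Cd3 cells with any of the 3 cytokines, 69.4% in labelled null IMQ, 44.0% in labelled null untreated, 36.0% in control IMQ and 34.3% in control untreated, was 33.5%, 16.2%, 11.4% and 22.2% with 1 Cd3 UMI. It was 79.0% in T or NK clusters and 60.5% after thinning to 1400 UMIs in labelled null IMQ, and 33.3% with the floor of 3039 UMIs in labelled null untreated. In Cd3 cells with at least 2 of the 5 non-cytokine genes, the log2 ratio of Il17a for IMQ in labelled null cells was 0.70. It was 0.95 in T or NK clusters and 1.31 with that floor. For IMQ in control cells it was 1.52, and 1.08 when 1 of the 5 genes marked a cell. For labelled null over control it was 0.13 under IMQ, and -0.021 with 1 Cd3 UMI, -0.040 with 3, 0.52 with the floor and 0.32 with 1 marking gene. Without treatment it was 0.95, and 0.76 in T or NK clusters and 0.58 with 1 marking gene. The cause of these moves was not tested. Low counts limit Il22 and Il23r most, with 8 UMIs in 1 cell and 6 UMIs in 6 cells of the control IMQ library. The 75 Cd3 cells of that library set the precision of every comparison that uses it.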

Other observations

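Areg, which encodes the growth factor amphiregulin, was read in the same Cd3 cells. It stood at 821 CPM in labelled null IMQ, 234 CPM in labelled null untreated, 217 CPM in control IMQ and 95.9 CPM in control untreated cells, and was called higher in all 4 comparisons. In Cd3 cells with at least 2 of the 8 genes it stood at 1444, 472, 360 and 152 CPM. Of 248 labelled null IMQ cells 73 held an Areg UMI, against 9 of 184, 10 of 75 and 28 of 309. Between the untreated libraries this share went the other way from the CPM, so the higher call there rests on 9 cells. Areg was also called higher in Cd3-free basal keratinocytes and fibroblasts of labelled null IMQ, over labelled null untreated and over control IMQ. Under IMQ in control cells it was called lower in the basal class and was not called in fibroblasts. Of 16 other lymphocyte cytokines, 1 was higher and 9 of 12 measured lower in labelled null than in control untreated Cd3 cells, against 6.0% and 6.08% of all genes. The chemokine Ccl5 was 48.2-fold lower (18.7 to 178), Ifng 14.7-fold lower (4.85 to 72.8, from 3 and 79 UMIs), Il13 5.87-fold lower (1.43 to 51.6, from 2 and 21 UMIs) and Tnfsf8 4.70-fold lower. Under IMQ 3 of 11 were higher and 3 lower in labelled null cells, against 13.1% and 12.9% of all genes, with Il10 12.2-fold (2.06 to 495, from 37 UMIs and 1 UMI) and Ccl5 4.54-fold higher and Ltb 2.82-fold lower. In control cells 1 of 13 was higher and 8 lower, against 7.83% and 10.8%, with Ccl5 15.96-fold, Il2 8.42-fold (2.79 to 41.6), Tnfsf11 4.63-fold (1.49 to 23.2) and Xcl1 3.99-fold lower. Ccl5 is also among the leading genes of the Langerhans cell cluster, and Langerhans cell markers in the same Cd3 cells summed to 2786 CPM in labelled null IMQ, 1264 CPM in labelled null untreated, 908 CPM in control IMQ and 3215 CPM in control untreated, so they moved with Ccl5 in these comparisons. Dendritic cell markers, at 2450, 1119, 881 and 3343 CPM, did so too, and the part of either in the Ccl5 ratios was not tested.

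Cd4 was read in 2 control IMQ cells of 75 and 43 control untreated cells of 309, and in 6 of 248 and 9 of 184 labelled null cells, IMQ first. Cd4, at 7.49-fold lower (1.98 to 63.4), and Cd28, at 6.74-fold lower, were the largest of 10 lower calls in the T cell receptor list of 12 measured genes under IMQ in control cells, where 10.8% of all genes were lower. Cd3e, 1 of the genes that chose the cells, was among the 10. The IL-23 subunit gene Il23a had 30 UMIs in 4 of 27 dendritic cells of the labelled null IMQ library and 0 in the 80, 49 and 161 dendritic cells of the other libraries. Il12b, its partner, had 8 UMIs in 3 of 74 Langerhans cells of labelled null IMQ and 2 in 1 of 12 of control IMQ.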
